A study of Mus musculus with 25 samples.

Results

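Gene expression was compared between 2 ways of stabilising β-catenin in mouse embryonic stem (ES) cells, a point mutation that the cells carry permanently and a short block of the kinase that marks the protein for destruction. Of the 25 libraries of the series, 13 entered the comparison: 9 ES cell clones with strong β-catenin mutations, and 4 libraries of unedited ES cells exposed to 7.5 or 10 µM of the GSK3 inhibitor CHIR99021 for 48 h, with 2 libraries at each dose. Members were chosen by genotype and by dose. The strong clones are those in the study's class of high mutational effect score, a reporter-based measure of how far a substitution activates β-catenin. That class was read off a clustering of expression in these same clones, so clones alike in expression were placed together.

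All cells were E14IVtg2a (E14), a feeder-free mouse ES line kept in serum with leukaemia inhibitory factor (LIF). The strong clones carried 6 substitutions, S37A, S37C and S37Y in 1 clone each and S37F, T41A and T41I in 2 clones each, which gave 5 clones mutated at codon 37 and 4 at codon 41. Each clone was heterozygous, received no inhibitor and supplied 1 library. They had been made by placing a selection cassette in Ctnnb1, replacing it with a donor template and picking colonies, whereas the cells given CHIR99021 were neither edited nor cloned. A further 2 libraries of untreated, unedited cells (0 µM) and 3 weak clones (T41S, T41N and S45C, 1 each) served as baselines. The weak clones carry mutations too, so they are a low rather than a zero baseline. Editing, selection, cloning and any difference in when the libraries were made go entirely with the contrast between strong clones and inhibitor, and their part cannot be told apart from that of the mutation or of the duration of signalling. The labels name no batch.

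β-Catenin is the coactivator through which canonical Wnt signals reach TCF/LEF transcription factors. Without a signal, casein kinase 1 and then GSK3 phosphorylate a row of serines and threonines near its N terminus, the ubiquitin ligase adaptor β-TRCP docks on the phosphorylated motif, and the protein is degraded. Substitutions at serine 37 or threonine 41 take away a GSK3 site of β-catenin alone, while CHIR99021 blocks GSK3 towards all of its substrates. In mouse ES cells, β-catenin is known for easing repression by TCF7L1 of naive pluripotency genes, for switching on inhibitors of its own pathway and, at high levels, for inducing genes of the primitive streak.

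The codons at issue lie in exon 3 of Ctnnb1, on the plus strand at chr9:120950599-120950652 (GRCm38). The GENCODE transcript reads as follows over codons 31 to 48, the window of the hotspot, with the reference codons 37 and 41 in capitals, shown because all strong clones differ from the inhibitor-treated cells at 1 of them.
Ctnnb1 codons 31 to 48: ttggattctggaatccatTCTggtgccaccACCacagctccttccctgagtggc

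Counts summed to 977644 to 2025273 per strong clone and to 1378497, 1735399, 306157 and 1327802 in the libraries at 7.5 µM (replicates 1 and 2) and 10 µM (replicates 1 and 2). Replicate 1 at 10 µM was thus the shallowest, and 3 counts there correspond to 9.80 CPM (counts scaled to a library total of 1000000), against 1.48 to 3.07 CPM in the strong clones. Neither total counts (exact permutation test, two-sided, adjusted p = 0.649) nor detected genes (adjusted p = 0.697) passed the test between the groups. The mitochondrially encoded share of counts did: it was 2.01% ± 0.316 (SD, n = 9) in strong clones and 1.14% ± 0.446 (SD, n = 4) at the top doses (exact permutation p = 0.0028, adjusted p = 0.0112), with the lowest value, 0.486%, again in replicate 1 at 10 µM. The 3 weak clones lay at 1.61 to 2.43% and the untreated cells at 0.562 and 1.31%, so all 12 of these clones lay above all 6 unedited libraries. The part of this share in the results below was not tested. Markers of ES cells were present in all 13 libraries: Sox2 stood at 469 to 707 CPM (median 568) in strong clones and at 479, 483, 506 and 421 CPM at the top doses, and Nanog, Zfp42 (REX1) and Esrrb are given below. Pou5f1 (OCT4) was read at only 14.1 to 28.8 CPM (median 21.5) and 11.3 to 16.0 CPM, respectively. It and other genes with near-identical processed copies, such as Gapdh, Pgk1 and Hspa8, may share reads with those copies, and their levels are uncertain. Over the autosomes and chromosome X, the median shift of a chromosome's genes was within -0.15 to 0.16 on the log2 scale in all libraries compared. Chromosome Y and the mitochondrial genome had too few genes for this value. The share of genes passing the test below ran, over the autosomes and chromosome X, from 40.7% on chromosome X to 53.3% on chromosome 17. It was 7 of 11 mitochondrial genes (63.6%) and 1 of 3 genes of chromosome Y (33.3%). Since these are bulk samples, fewer cells that express a gene and less RNA per cell cannot be told apart.

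Strong clones and top-dose cells differed across much of the transcriptome. Of 10145 genes tested, 5043 passed edgeR's quasi-likelihood test at an adjusted p under 0.05 (49.7%), 2458 of them higher in strong clones (24.2%) and 2585 lower (25.5%). Without replicate 1 at 10 µM, 2373 passed upwards and 2624 downwards. Differences of at least 1 on the log2 scale were found for 545 genes that were higher and 961 that were lower, while the median over all genes was 0.01. In CPM, every strong clone lay above every top-dose library for 1482 genes (14.6%) and below for 1327 (13.1%). Across genes, log2(CPM + 1) correlated at a median r of 0.960 between strong clones (36 pairs), 0.947 between top-dose libraries (6 pairs) and 0.874 between the groups (36 pairs). These are descriptions, and genes are not independent replicates. Counts of gene lists below are to be read beside the 24.2% and 25.5% of all genes. Of the 425 list members tested, 15 had a median under the level of the filter on low counts (7.43 CPM) at the top doses and 36 had one in strong clones. They entered the test mainly through the other group, so a difference in its direction was favoured by the filter, and a count is no support to the extent that it holds them.

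Differences from cells with neither mutation nor inhibitor place these values. Against the same 2 untreated libraries, 4013 of 10963 genes changed in strong clones (36.6%), 1857 upwards (16.9%) and 2156 downwards (19.7%), and 757 changed at the top doses (6.91%), 349 upwards (3.18%) and 408 downwards (3.72%). These comparisons share their controls, so they are given side by side only. Their counts rest on single libraries: without replicate 1 of the untreated cells they were 806 and 916 for strong clones and 55 and 72 for the top doses, and without replicate 2 they were 1071 and 1380, and 135 and 161. For the top doses they were 232 and 245 without replicate 1 at 7.5 µM, 232 and 254 without replicate 2 at 10 µM, and 257 downwards without replicate 2 at 7.5 µM. A difference relative to own baselines was also fitted, that is, strong minus weak clones, less top dose minus untreated, which takes out what all clones share and what all unedited libraries share. It passed the test for 2340 of 11226 genes (20.8%), 998 higher (8.89%) and 1342 lower (12%) in the mutation arm. This count rests heavily on the baseline chosen: with 3 clones of medium mutation strength (S45F, in 2 clones, and S45P) in place of the weak ones it was 132 higher and 139 lower, without the T41S clone 582 and 728, and without replicate 1 of the untreated cells 547 and 818.

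**Figure D1:**
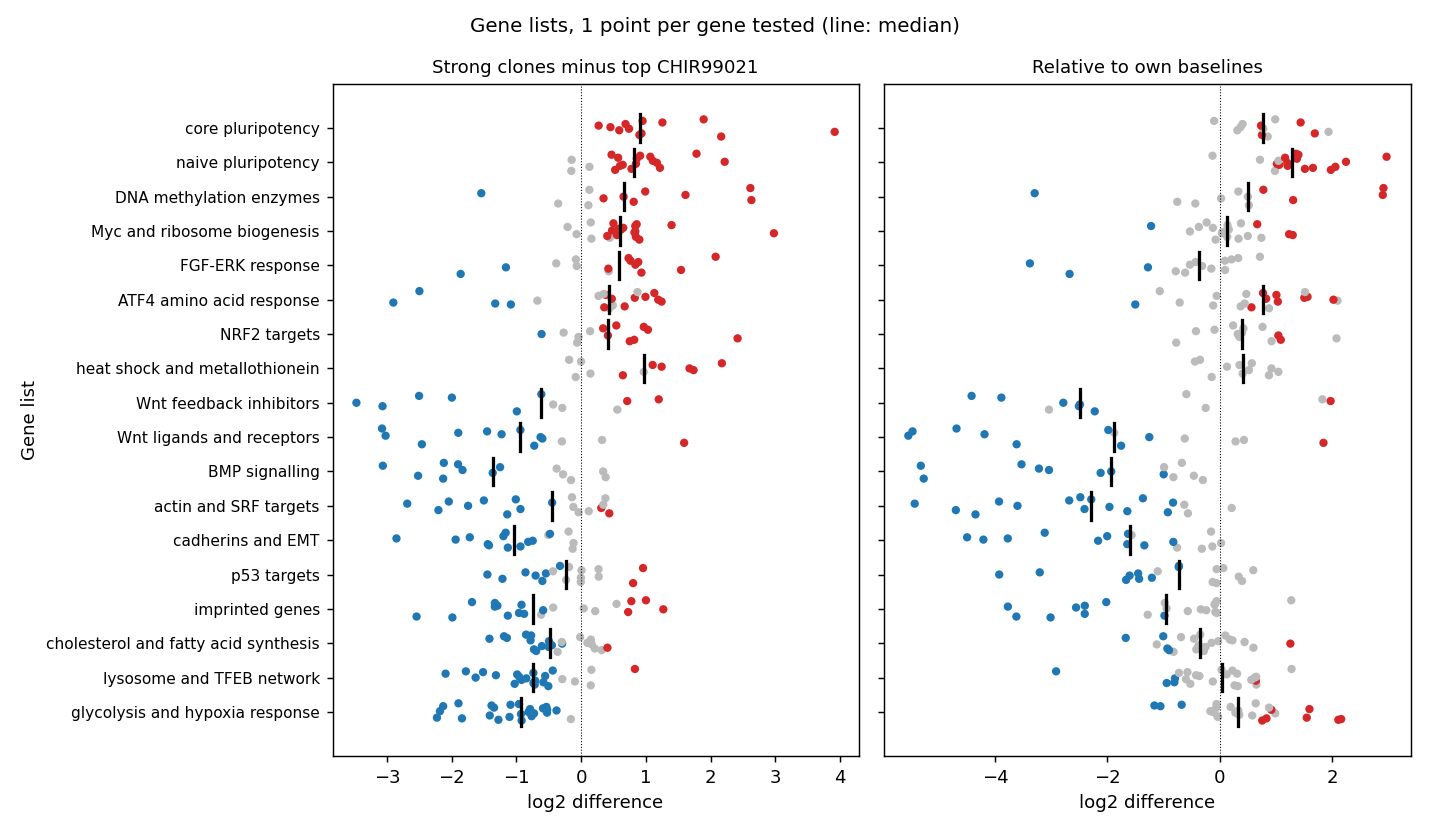
Log2 differences of the genes of 18 lists, 1 point per gene tested, for strong clones minus top CHIR99021 (left) and relative to own baselines (right). Red and blue points passed edgeR's quasi-likelihood test upwards and downwards, grey points did not, and black lines are medians. All 12 core pluripotency genes lie right of 0 on the left panel, and 24 of 25 glycolysis and hypoxia genes are blue there, while 3 are blue on the right panel.

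Of the 10 β-catenin targets that the study had chosen for their dose response to CHIR99021, 3 were higher in strong clones, 4 were lower and 3 did not pass the test, beside 24.2% and 25.5% of all genes. Against untreated cells 9 of the 10 rose in strong clones (16.9% of all genes) and 9 at the top doses (3.18%). Because they were picked on the inhibitor-treated libraries, their rise with CHIR99021 is not independent evidence. Axin2, a scaffold of the destruction complex and the classic feedback target, was at 133, 122, 98.0 and 134 CPM in the 4 top-dose libraries and at 38.9 to 87.4 CPM (median 63.4) in strong clones. The groups did not overlap, and the log2 difference was -0.99 ± 0.16 (SE; edgeR's quasi-likelihood test, adjusted p = 4.0e-05). Both lay above the untreated cells, at 15.8 and 13.8 CPM, while weak clones, at 42.4, 38.3 and 22.6 CPM, reached the lower end of the strong ones. Sp5, a zinc finger repressor induced by Wnt, had the same order, with 137, 131, 179.6 and 192 CPM at the top doses, 41.3 to 128 CPM (median 76.7) in strong clones and a log2 difference of -1.01 ± 0.20 (adjusted p = 3.4e-04). It too separated the groups without overlap.

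The widest gap among the targets belonged to Nkd1, which encodes an inhibitor that binds Dishevelled. Its levels were 45.7, 42.1, 49.0 and 77.6 CPM at the top doses, against 1.55 to 11.2 CPM (median 7.41) in strong clones, 9.24 and 9.57 CPM in untreated cells and 10.2, 2.02 and 1.51 CPM in weak clones. The strong clones lay around the libraries without inhibitor, and all of them below the top doses. Their difference from untreated cells was -0.52 on the log2 scale (adjusted p = 0.39), and that of the top doses was 2.53 (adjusted p = 4.2e-04). Against each other the groups differed by -3.07 ± 0.27 (adjusted p = 1.5e-08). Znrf3, a ligase that removes Frizzled receptors, was lower by a smaller margin, at 24.0 to 42.7 CPM (median 35.0) against 54.4, 57.6, 42.5 and 48.2 CPM, with overlapping ranges (-0.62 ± 0.14, adjusted p = 0.0013).

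Another 3 targets had the opposite order. Etv4, an ETS factor that also responds to FGF, was at 106 to 194 CPM (median 128) in strong clones and 43.5, 36.9, 52.3 and 56.5 CPM at the top doses, with no overlap and a log2 difference of 1.54 ± 0.19 (adjusted p = 9.6e-07). Weak clones held 57.1, 80.7 and 73.9 CPM and untreated cells 29.4 and 17.0, and relative to own baselines the difference was 0.09 ± 0.37 (adjusted p = 0.9). Tbx3, a T-box factor of naive cells, was 0.57 ± 0.15 higher (adjusted p = 0.0035), and 1.16 ± 0.33 relative to own baselines (adjusted p = 0.012). Gbx2, a homeobox gene of the LIF and Wnt responses, passed narrowly at 0.36 ± 0.15 (adjusted p = 0.043) and had the other sign relative to own baselines, -0.99 ± 0.38 (adjusted p = 0.066). Leaving out any of 7 single libraries raised its adjusted p to between 0.052 and 0.24, and these were replicates 1 and 2 at 7.5 µM, replicate 2 at 10 µM, the S37A and S37Y clones, the T41A clone E6 and the T41I clone B9.

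For the remaining targets the difference was small or imprecise. Cdx1, a caudal homeobox gene, reached 115 to 334 CPM (median 258) in strong clones and 228, 256, 307 and 291 CPM at the top doses, from 27.7 and 28.7 CPM in untreated cells, and the 95% interval of the log2 difference between the groups ran from -0.51 to 0.19. The intervals were -0.92 to 0.05 for Notum, an extracellular enzyme that inactivates Wnt ligands, and 0.05 to 0.70 for Bmp4, a BMP ligand, whose adjusted p was 0.05. Notum passed without the T41I clone A6 (-0.58, adjusted p = 0.019), and Bmp4 without that clone, the T41I clone B9 or the S37F clone H2 (0.40 to 0.45, adjusted p = 0.0076 to 0.043). Ctnnb1 itself was at 433 to 527 CPM (median 484) and 469, 508, 542 and 422 CPM, with an interval of -0.23 to 0.13. Summed over the 10 targets, levels ran from 807 to 1315 CPM in strong clones, 1018 to 1190 CPM at the top doses, 237 to 250 CPM in untreated cells and 442 to 531 CPM in weak clones, so the groups compared overlapped in the sum.

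**Figure D2:**
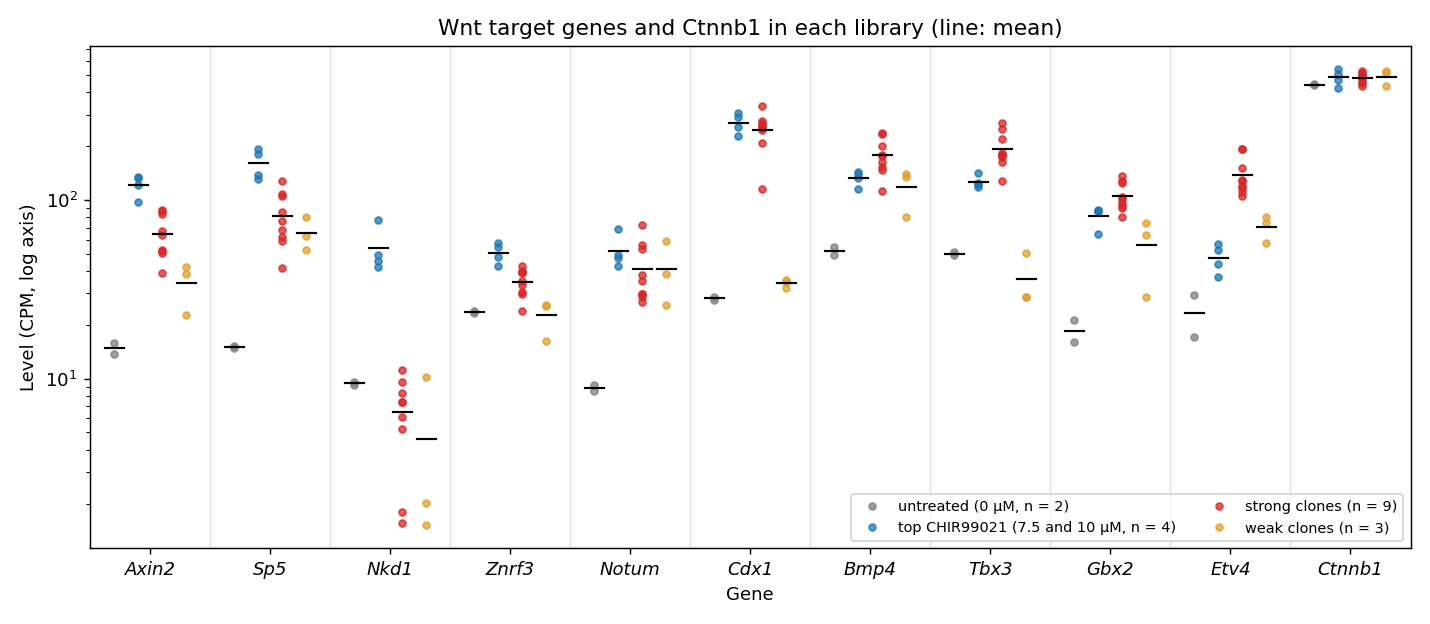
Level (CPM, log axis) of the 10 target genes and Ctnnb1 in each untreated, top-dose, strong and weak library, with black lines at the group means. Axin2, Sp5 and Nkd1 are higher in all 4 top-dose libraries than in any strong clone, Etv4 is lower, and Ctnnb1 is level at 422 to 542 CPM in the 13 libraries compared.

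Of 19 feedback inhibitors of the Wnt pathway, 11 had enough counts to test, 6 were lower and 2 higher, with a median log2 difference of -0.62 beside 0.01 over all genes. Rnf43, the partner ligase of Znrf3, was at 0 to 5.87 CPM (median 1.98) in strong clones and 24.7, 21.9, 13.1 and 34.6 CPM at the top doses (-3.47 ± 0.39, adjusted p = 3.1e-07). Tnfrsf19 (TROY), a receptor that restrains Wnt signalling in stem cells, was at 3.59 to 21.9 CPM (median 10.4) against 40.6, 50.7, 52.3 and 42.9 CPM (-2.00 ± 0.25, adjusted p = 1.5e-06). Wls, the carrier that brings Wnt proteins to the surface and was counted in this list, was at 7.90 to 17.9 CPM (median 12.3) against 56.6, 76.6, 75.1 and 60.2 CPM (-2.50 ± 0.18, adjusted p = 1.0e-09). None of these 3 genes overlapped between the groups. The 2 members with the other direction were Sfrp1 (0.71, adjusted p = 7.3e-04), a secreted antagonist, and Shisa2 (1.199, adjusted p = 0.016), which holds back Frizzled receptors. Relative to own baselines 6 members were lower and 1 higher, with a median of -2.49. Nkd1 and Rnf43 entered the test mainly through the top doses and Shisa2 through strong clones.

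Of 28 ligands and receptors of the pathway, 13 were tested, 10 were lower in strong clones and 1 was higher. For 6 of the 10, Wnt3, Wnt4, Wnt5b, Wnt7b, Wnt9a and Fzd2, the median of strong clones was under the filter's level, so the count is no support for a direction of the list. Wnt3, the ligand that starts gastrulation, was at 0.599 to 8.92 CPM (median 3.20) in strong clones and 30.5, 34.6, 19.6 and 34.6 CPM at the top doses, a difference of -3.02 ± 0.29 (adjusted p = 4.5e-08). Wnt9a (-3.08), Wnt5b (-1.90), Wnt6 (-1.45), Wnt4 (-1.23) and Wnt7b (-0.94), further ligands, were lower too, as was the receptor gene Fzd2 at -2.46 ± 0.29 (adjusted p = 7.2e-07). Fzd5 was the member that rose, by 1.59 (adjusted p = 3.2e-07). Relative to own baselines the counts were 8 lower and 1 higher. Within the destruction complex and its partners, 20 of 22 genes were tested, and 4 were higher and 3 lower, which is near or below the 24.2% and 25.5% of all genes and no result about the list. The lower ones included Bcl9l, a coactivator that tethers β-catenin (-1.34 ± 0.28, adjusted p = 5.2e-04), and Csnk1e, a casein kinase 1 gene (-1.12 ± 0.16, adjusted p = 7.7e-06). Bcl9l entered the test mainly through the top doses. For Csnk1e the sign turned relative to own baselines, to 1.01 ± 0.32 (adjusted p = 0.023). Weak clones held 177, 153 and 98.1 CPM, untreated cells 658 and 594 CPM and strong clones 157 to 352 CPM.

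Other genes known as Wnt targets were mixed, with 7 lower and 2 higher of 13 tested. Cd44 and Sp8 entered the test mainly through the top doses, so for them a fall was favoured by the filter. Lef1, itself a TCF/LEF factor, was at 10.2 to 30.96 CPM (median 17.8) and 48.6, 48.4, 42.5 and 45.2 CPM (-1.34 ± 0.21, adjusted p = 2.0e-05). Cd44, a hyaluronan receptor, was at 0.776 to 6.41 CPM (median 3.72) against 18.9, 29.4, 39.2 and 27.9 CPM (-2.95 ± 0.30, adjusted p = 8.6e-08), and Ccnd2, cyclin D2, at 8.92 to 26.7 CPM (median 13.9) against 54.4, 59.9, 71.9 and 58.7 CPM (-1.95 ± 0.20, adjusted p = 1.5e-07). All 3 were non-overlapping. Untreated cells held 8.15 and 11.7 CPM of Lef1, 2.72 and 5.32 CPM of Cd44 and 10.9 and 11.7 CPM of Ccnd2, so strong clones were nearer to them than the top doses were. The 2 higher genes were Myc, given with growth genes, and Mycn, at 50.1 to 139.6 CPM (median 85.9) against 50.8, 54.2, 45.7 and 52.0 CPM and 129 and 102 CPM in untreated cells.

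Promoter sequence was available from RefSeq (GRCm38.p6) for 12 of 18 genes named here as study targets, feedback inhibitors or naive pluripotency genes, with Ctnnb1. No window was found for Cdx1, Etv4, Fbxo15, Notum, Tbx3 or Znrf3. The 250 bases before the start site were searched for CTTTGA on both strands (TCAAAG on the other), a form of the core that TCF/LEF factors recognise. Other forms were not searched, so a window without CTTTGA may still hold a TCF/LEF site. Of the 16 windows of these genes, 3 held CTTTGA, each of another gene. Over all genes 13.8% of 32851 windows did. The genes with a match were Sp5 and Tnfrsf19, both lower in strong clones than at the top doses, and Nr0b1, the naive gene with the opposite order. Tnfrsf19 held it in 1 of its 2 windows, and Nkd1 did not hold it. The windows of Sp5, Nr0b1 and Nkd1 are given, with any match in capitals, because Sp5 and Nkd1 were lower and Nr0b1 higher in strong clones. A match is a description of letters only.
Sp5 (chr2:70474673-70474922, plus strand): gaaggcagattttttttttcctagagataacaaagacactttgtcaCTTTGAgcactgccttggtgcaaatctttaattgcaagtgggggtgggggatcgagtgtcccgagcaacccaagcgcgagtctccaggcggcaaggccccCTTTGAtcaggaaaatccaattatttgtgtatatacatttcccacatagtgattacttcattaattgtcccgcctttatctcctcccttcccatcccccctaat
Nr0b1 (chrX:86191525-86191774, plus strand): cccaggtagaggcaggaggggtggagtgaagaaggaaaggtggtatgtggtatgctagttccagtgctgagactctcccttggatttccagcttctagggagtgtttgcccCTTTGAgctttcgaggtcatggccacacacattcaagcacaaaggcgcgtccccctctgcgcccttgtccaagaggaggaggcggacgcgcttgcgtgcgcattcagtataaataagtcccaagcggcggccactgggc
Nkd1 (chr8:88527383-88527632, plus strand): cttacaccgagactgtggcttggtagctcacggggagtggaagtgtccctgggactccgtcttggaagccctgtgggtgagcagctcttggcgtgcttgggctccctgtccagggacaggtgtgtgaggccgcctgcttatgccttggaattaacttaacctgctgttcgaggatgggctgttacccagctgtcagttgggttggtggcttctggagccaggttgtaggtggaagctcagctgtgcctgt
The matches began 204 and 104 bases before the start site in Sp5 and 139 bases before it in Nr0b1.

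Pluripotency genes were higher in strong clones. Of 18 naive genes, all were tested, and 15 were higher and none lower (median 0.81). All 12 core genes were higher (median 0.92), but 1 of them, Foxd3, entered the test mainly through strong clones, so its direction was favoured by the filter. Nr0b1 (DAX1), an orphan receptor of the naive network, was at 259.8 to 462 CPM (median 413) in strong clones and 73.3, 83.0, 81.7 and 81.3 CPM at the top doses, a difference of 2.22 ± 0.16 (adjusted p = 9.5e-10). Zfp42 was at 450.0 to 620.1 CPM (median 559.6) against 175, 149, 157 and 152 CPM (1.78 ± 0.10, adjusted p = 3.1e-11), and Esrrb, a nuclear receptor regulated through TCF7L1, at 491 to 661 CPM (median 546) against 315, 307, 343 and 299.7 CPM (0.78 ± 0.09, adjusted p = 4.5e-07). These 3 separated the groups completely. Nanog lay at 278 to 627 CPM (median 461) and 186, 205, 238 and 169 CPM (1.17 ± 0.17, adjusted p = 1.0e-05), also without overlap.

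Naive genes together were highest in strong clones. Summed over the 18, levels were 7415 to 8383 CPM in strong clones, 4314 to 4527 CPM at the top doses, 4555 and 4565 CPM in untreated cells and 2330 to 4066 CPM in weak clones. Relative to own baselines, 14 of 18 were higher and none was lower (median 1.28), beside 8.89% of all genes higher. For the core genes that count was 4 of 12, and the summed levels of weak clones, 2382 to 3604 CPM, and untreated cells, 2762 and 2883 CPM, reached into or near the range of strong clones, 2643 to 3574 CPM, while the top doses were at 1765 to 1924 CPM. Utf1, a chromatin-associated ES cell factor, showed this: 392 to 563 CPM (median 426) in strong clones, 602 and 626 CPM in untreated cells and 168, 176, 219 and 178 CPM at the top doses, where it fell from untreated cells (-1.75, adjusted p = 6.9e-08). With the medium clones as baseline 5 naive genes were higher and 1 lower.

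**Figure D3:**
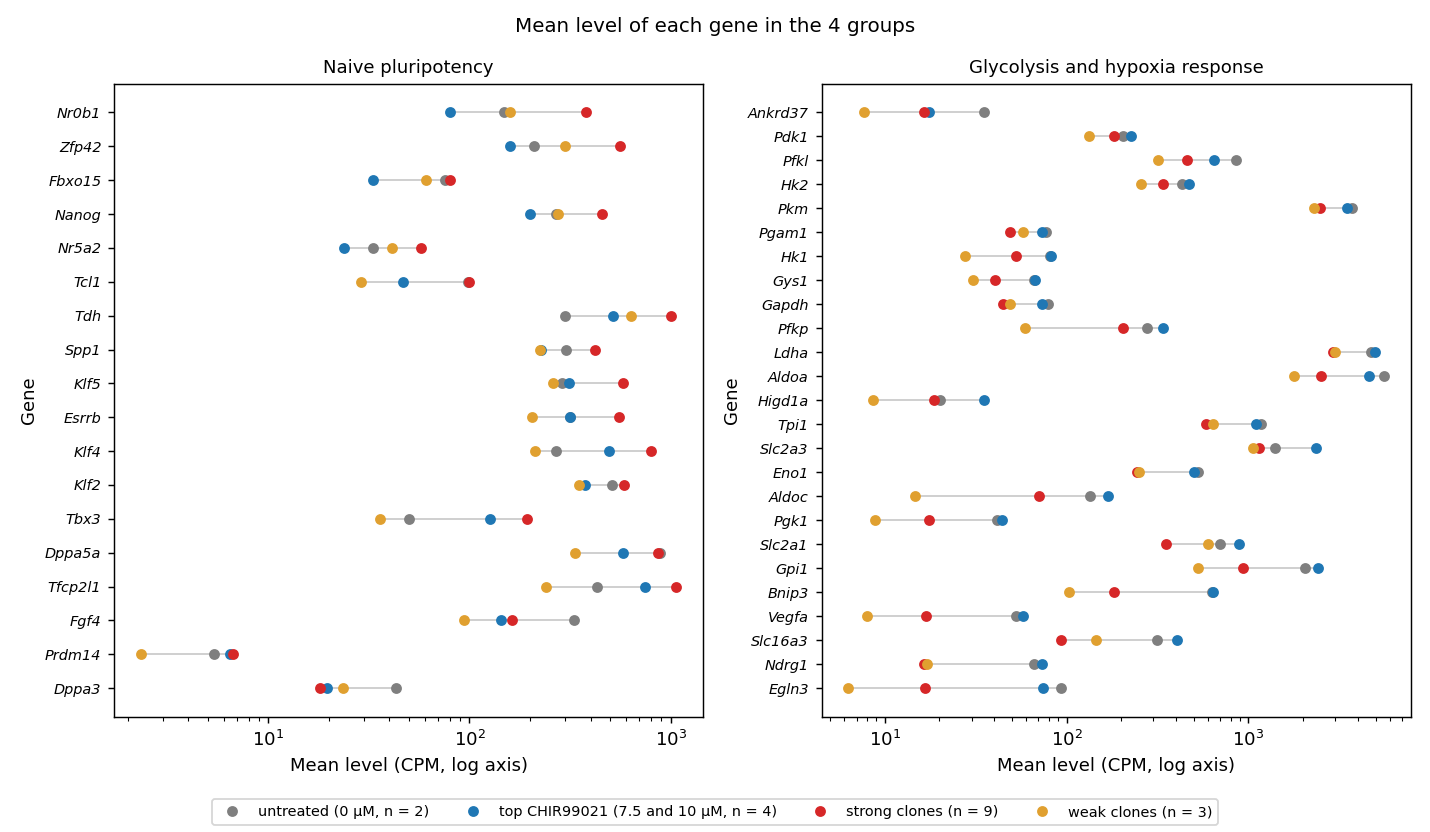
Mean level (CPM, log axis) of each naive pluripotency gene (left) and each glycolysis and hypoxia gene (right) in untreated cells, top-dose cells, strong clones and weak clones. Strong clones (red) lie farthest right for most naive genes, whereas for most glycolytic genes strong and weak clones (yellow) lie left of the unedited groups.

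Genes of primed pluripotency did not share a direction, with 4 higher and 4 lower of 10 tested. Zic2 and Zic5, zinc finger genes of the epiblast, were higher (2.20, adjusted p = 0.0039, and 1.41, adjusted p = 0.0056), while Cldn6, a tight junction claudin, was at 35.7 to 53.7 CPM (median 44.0) against 119.7, 142, 144 and 124 CPM (-1.59 ± 0.12, adjusted p = 1.0e-09). Zic2 was low throughout, at 2.14 to 12.6 CPM in strong clones, and absent from the counts of the weak clones, so its value relative to own baselines is not given.

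Mesendoderm genes were mostly too low to test, and 6 of 19 had enough counts. T (Brachyury), the T-box factor of the primitive streak, was at 15.6 to 58.3 CPM (median 36.5) in strong clones and 117, 95.7, 124 and 102 CPM at the top doses (-1.73 ± 0.24, adjusted p = 5.0e-06), and both groups were above untreated cells, at 9.78 and 10.6 CPM. Mixl1, a homeobox gene of the same stage, was at 0 to 5.11 CPM (median 1.49) against 10.9, 16.7, 13.1 and 17.3 CPM (-3.12 ± 0.38, adjusted p = 8.6e-07), and Fgf8 at 0 to 6.94 CPM (median 0.744) against 17.4, 13.8, 13.1 and 17.3 CPM (-3.29 ± 0.50, adjusted p = 1.6e-05). These 2 passed the filter on low counts only through the top doses, so no count is given for the list. Eomes, a further T-box factor, had the other sign at 1.19 ± 0.36 (adjusted p = 0.0091), and 0.89 without replicate 2 at 7.5 µM (adjusted p = 0.077). Cyp26a1, which breaks down retinoic acid and was listed with Cdx and Hox genes, was lower as well (-2.74, adjusted p = 1.7e-06). It too entered the test mainly through the top doses.

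Of 13 BMP pathway genes tested 8 were lower in strong clones and none higher, and 8 were lower and none higher relative to own baselines. For 6 of the 8, among them Msx1, Bmp2 and Smad6, the median of strong clones was under the filter's level, so the count is no support for a direction of the list. Msx1, a homeobox target of BMP and Wnt, was at 0.599 to 10.4 CPM (median 5.21) in strong clones, 52.2, 39.8, 52.3 and 46.7 CPM at the top doses and 2.17 and 1.06 CPM in untreated cells (-3.06 ± 0.28 between the groups compared, adjusted p = 2.0e-08). Bmp2 (-2.13, adjusted p = 1.4e-06) and Bmp7 (-2.52, adjusted p = 1.5e-08) were the lower ligands, Smad6 the lower inhibitor (-2.12, adjusted p = 7.6e-06) and Id2 the lower effector (-1.83, adjusted p = 1.3e-09). On counts thinned to the smallest library, 2 of 6 genes were lower and 1 higher. Of 10 Nodal pathway genes 3 were higher and 4 lower, beside 24.2% and 25.5% of all genes, with Skil, an inhibitor of SMAD signalling, lower (-1.07) and Gdf3 higher (0.95, adjusted p = 2.2e-05). Among the 10, 1 entered the test mainly through the top doses.

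Growth genes were higher in strong clones, but weak clones were similar to them. Myc was at 37.4 to 121 CPM (median 88.7) in strong clones and 10.2, 9.80, 13.1 and 10.5 CPM at the top doses, a difference of 2.98 ± 0.28 (adjusted p = 2.6e-08) without overlap. Weak clones held 101, 115 and 101 CPM and untreated cells 13.05 and 13.8 CPM, so that the difference relative to own baselines was 0.04 ± 0.44 (adjusted p = 0.97). Of the 20 genes listed for Myc and ribosome biogenesis 15 were higher and none lower (median 0.60), among them Polr1b, a subunit of RNA polymerase I (1.40 ± 0.19, adjusted p = 3.3e-06), and Bop1, a ribosome assembly factor (0.90 ± 0.13, adjusted p = 5.9e-06). Relative to own baselines 3 were higher and 1 lower. FGF-ERK response genes had a like pattern: 8 of 14 were higher and 2 lower directly, and none higher and 3 lower relative to own baselines. Spry4, a feedback inhibitor, was at 89.7 to 289 CPM (median 226) against 42.1, 35.7, 65.3 and 53.5 CPM (2.08 ± 0.28, adjusted p = 3.2e-06), whereas the phosphatase gene Dusp4 (-1.86, adjusted p = 6.0e-07) and the receptor gene Fgfr1 (-1.16, adjusted p = 2.7e-08) were lower.

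In the LIF pathway 5 of 12 genes were higher and 1 lower, and the same counts held relative to own baselines. Lifr, the LIF receptor, was at 46.5 to 83.3 CPM (median 67.9) against 22.5, 24.8, 32.7 and 23.3 CPM (1.41 ± 0.17, adjusted p = 9.2e-07; 1.78 ± 0.31 relative to own baselines, adjusted p = 1.3e-04), and Klf4, a naive factor downstream of STAT3, at 519 to 931 CPM (median 839) against 520.1, 496, 480.1 and 477 CPM (0.64 ± 0.12, adjusted p = 1.8e-04). Gadd45g was the lower member (-2.01 ± 0.33, adjusted p = 3.9e-05), and it entered the test mainly through the top doses.

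The 3 cell cycle genes that were lower, Cdkn1b (p27), Cdkn1c (p57) and Cdkn2b (p15), encode inhibitors of cyclin-dependent kinases, as does the p53 target Cdkn1a (p21). Cdkn1a was at 306 to 451 CPM (median 375) in strong clones, 865, 875, 856 and 832 CPM at the top doses and 291 and 298 CPM in untreated cells, and the groups compared differed by -1.22 ± 0.09 (adjusted p = 2.8e-09). Cdkn1c, an imprinted gene, differed by -1.99 ± 0.26 (adjusted p = 2.0e-06), Cdkn2b by -1.58 ± 0.32 (adjusted p = 3.0e-04) and Cdkn1b by -1.04 ± 0.15 (adjusted p = 1.1e-05). Cdkn2b entered the test mainly through the top doses, so its direction was favoured by the filter. Cyclin genes Ccne1 (1.16, adjusted p = 6.1e-07) and Ccnd3 (1.13, adjusted p = 2.1e-07) were higher, and over the cell cycle list 8 of 16 were higher and 3 lower. Of 17 genes listed as p53 targets 7 were lower and 2 higher, beside 25.5% and 24.2% of all genes, and 5 and 1 with the replicate block, with Perp, a desmosomal apoptosis effector, at 25.8 to 58.8 CPM (median 39.2) against 95.8, 91.6, 137 and 108 CPM (-1.45 ± 0.17, adjusted p = 7.9e-07). Trp53 itself was higher (0.96 ± 0.17, adjusted p = 9.0e-05).

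Glycolytic genes were lower in strong and weak clones alike. Of 25 glycolysis and hypoxia genes 24 were lower in strong clones and none higher (median -0.93), beside 25.5% of all genes lower. Slc16a3, the lactate exporter MCT4, was at 53.7 to 177 CPM (median 88.7) in strong clones and 392, 392, 408 and 418 CPM at the top doses (-2.13 ± 0.18, adjusted p = 1.1e-08). Vegfa (-1.90 ± 0.22, adjusted p = 5.0e-07), Ndrg1 (-2.182 ± 0.28, adjusted p = 2.1e-06) and Egln3 (-2.23 ± 0.25, adjusted p = 4.5e-07), targets of hypoxia-inducible factors, were lower too. Summed levels were 10309 to 17095 CPM in strong clones, 10830 to 12330 CPM in weak clones, 23145 to 24394 CPM at the top doses and 23015 and 23559 CPM in untreated cells, so all 12 clones lay below all 6 unedited libraries. Relative to own baselines 7 were higher and 3 lower (median 0.33), Egln3 among the higher at 1.55 ± 0.56 (adjusted p = 0.049).

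Lysosomal genes were mostly lower too, with 18 of 23 lower and 1 higher (median -0.74) and 4 lower and 1 higher relative to own baselines. Against untreated cells 12 were lower in strong clones (19.7% of all genes) and 6 were higher at the top doses (3.18%). Sums were 2657 to 3648 CPM in strong clones, 2557 to 3227 CPM in weak clones, 4881 to 5316 CPM at the top doses and 3830 and 3893 CPM in untreated cells. Npc2, which exports cholesterol from lysosomes, was at 167 to 312 CPM (median 198) against 591, 547, 545 and 637 CPM (-1.52 ± 0.12, adjusted p = 5.3e-09), the sialidase gene Neu1 at 10.9 to 32.0 CPM (median 14.0) against 63.1, 69.1, 58.8 and 91.1 CPM (-2.10 ± 0.22, adjusted p = 1.7e-07), and Hexa, a hexosaminidase subunit, at -1.63 ± 0.16 (adjusted p = 9.2e-08). Rragd, a RAG GTPase, was lower in both fits (-1.78 ± 0.30 directly, adjusted p = 5.0e-05; -2.91 ± 0.61 relative to own baselines, adjusted p = 0.0011). Of 22 genes for cholesterol and fatty acid synthesis 13 were lower and 1 higher, led by the desaturase genes Scd1 (-1.42 ± 0.16, adjusted p = 3.1e-07) and Scd2 (-1.15 ± 0.08, adjusted p = 1.0e-09) and by the regulator Srebf1 (-1.19 ± 0.17, adjusted p = 5.2e-06).

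Stress programmes were partly higher in strong clones than at the top doses. In the ATF4 amino acid response 9 of 19 genes were higher and 4 lower, and 8 were higher and 1 lower relative to own baselines. Vldlr, among the lower ones, entered the test mainly through the top doses. The one-carbon enzyme gene Mthfd2 was at 99.0 to 188 CPM (median 132) against 53.7, 57.0, 71.9 and 50.5 CPM (1.24 ± 0.17, adjusted p = 3.2e-06), but Ddit4 (REDD1), an inhibitor of mTORC1, was at 35.7 to 172 CPM (median 52.7) against 518, 488, 461 and 524 CPM (-2.90 ± 0.27, adjusted p = 2.4e-08). Of 13 NRF2 targets 8 were higher and 1 lower, including Gclm, a subunit of the enzyme that starts glutathione synthesis (0.82 ± 0.17, adjusted p = 4.3e-04), and Gpx2, a glutathione peroxidase (2.42 ± 0.41, adjusted p = 5.1e-05). Gpx2 entered the test mainly through strong clones. Summed NRF2 targets were at 2688 to 3123 CPM in strong clones, 2919 and 3099 CPM in untreated cells and 2141 to 2277 CPM at the top doses. Against untreated cells 2 were higher and 2 lower in strong clones, and 3 were lower at the top doses. Relative to own baselines 2 were higher and none lower.

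Genes of the actin cytoskeleton and of epithelia differed in part, 9 of 17 and 12 of 16 being lower in strong clones. Tagln (SM22), an actin-binding protein, was at 34.1 to 86.1 CPM (median 39.0) in strong clones, 259, 285, 359 and 269 CPM at the top doses, 89.7 and 128 CPM in untreated cells and 1147, 621 and 373 CPM in weak clones. The direct difference was -2.69 ± 0.17 (adjusted p = 2.8e-10) and that relative to own baselines -5.43 ± 0.44 (adjusted p = 1.1e-08). Tpm1, a tropomyosin, was at 142 to 219 CPM (median 165) against 725, 709.9, 676 and 720.0 CPM (-2.05 ± 0.10, adjusted p = 4.6e-12). Over 17 actin and SRF targets 9 were lower and 2 higher directly, and 14 lower and none higher relative to own baselines. Cnn1 and Myl9, among the 17, entered the test mainly through the top doses, and to that extent the direct count is no support. The summed level of this list was not lower, at 10060 to 15390 CPM in strong clones (median 11604) and 9590 to 11028 CPM at the top doses (median 10496), with 16015 to 34725 CPM in weak clones. Among 16 genes for cadherins and epithelial-mesenchymal transition 12 were lower and none higher (median -1.04), and 10 were lower relative to own baselines. Snai1, among the 16, entered the test mainly through the top doses. The list summed to 2011 to 2453 CPM in strong clones and 3874 to 3982 CPM at the top doses. Lower genes included the keratin genes Krt8 (-1.72 ± 0.19, adjusted p = 2.8e-07), Krt18 (-1.94 ± 0.16, adjusted p = 8.1e-09) and Krt19, the last at 15.6 to 50.4 CPM (median 38.7) against 246, 222, 248 and 226 CPM (-2.85 ± 0.18, adjusted p = 2.2e-10). Cdh1 (E-cadherin), which binds β-catenin at junctions, had a difference of -0.13 (adjusted p = 0.24).

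Genes that set or read DNA methylation were higher in 7 of 11 cases and lower in 1. Their sum was 3150 to 3642 CPM in strong clones, 2750 to 4201 CPM in weak clones, 1719 to 1832 CPM at the top doses and 2286 and 2659 CPM in untreated cells. Against untreated cells 5 were lower at the top doses (3.72% of all genes), and 4 were higher and 1 lower in strong clones (16.9% and 19.7%). Relative to own baselines 4 were higher and 1 lower. Zfp57, a zinc finger protein that keeps imprints, was at 165 to 297 CPM (median 238) against 40.6, 39.8, 42.5 and 29.4 CPM (2.62 ± 0.19, adjusted p = 1.0e-09), and 2.91 ± 0.36 relative to own baselines (adjusted p = 2.3e-06). Dnmt3l, the cofactor of de novo methylation, was at 171 to 383 CPM (median 275) against 48.6, 38.6, 68.6 and 32.4 CPM (2.63 ± 0.23, adjusted p = 1.1e-08), and Tet2, a demethylating dioxygenase, at 145 to 314 CPM (median 230.5) against 77.6, 70.9, 62.1 and 72.3 CPM (1.61 ± 0.18, adjusted p = 3.0e-07). Tet3 was the lower member (-1.54 ± 0.37, adjusted p = 0.0014), and it entered the test mainly through the top doses. Of 20 imprinted genes tested 11 were lower and 4 higher, with Dlk1, a protein akin to Notch ligands, at 1.797 to 6.39 CPM (median 2.98) against 22.5, 17.9, 19.6 and 18.1 CPM (-2.54 ± 0.28, adjusted p = 2.2e-07), Slc38a4 at -1.69 and Peg10 at -1.33. Dlk1 entered the test mainly through the top doses. Germline genes were higher in 5 of 8 and lower in none, led by Tex19.1 (2.47 ± 0.28, adjusted p = 4.7e-07) and Mael (1.77 ± 0.31, adjusted p = 8.5e-05). Of the 8, Stk31 and Taf7l entered the test mainly through strong clones, and to that extent the count is no support. Relative to own baselines 2 were higher and none lower. Their sum was 147 to 478 CPM in strong clones, 152 to 175 CPM at the top doses and 269 and 310 CPM in untreated cells.

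Markers of other cell types moved in both directions, and their part in the results was not tested. Of 14 primitive endoderm markers 11 were tested, and 3 that passed the filter mainly through strong clones were higher, Gata6 (3.10 to 85.4 CPM in strong clones, 2.26 to 13.1 CPM at the top doses), Sox17 (0 to 60.2 and 1.45 to 3.27 CPM) and Dab2 (2.33 to 39.0 and 0 to 3.63 CPM). The Gata6 call was lost without any 1 of replicates 1 and 2 at 7.5 µM and replicate 2 at 10 µM (adjusted p = 0.066 to 0.13). The count depended on the clones: with codon 37 clones alone 8 of 11 primitive endoderm markers were higher and none lower (median 1.29), with codon 41 clones alone none of 7 was higher and 3 were lower (median -0.43), and limma-voom called 1 higher and DESeq2 2. Gata6, Sox17 and Dab2 were at their highest in the S37Y clone, and the summed list ran from 546 to 2851 CPM in strong clones and from 1015 to 1051 CPM at the top doses. Of 12 neural markers 5 were tested, of which 3 were lower and 1 higher. Map2 and Nes, among the 5, passed the filter mainly through the top doses, so the count is no support for a direction. The defining markers Sox1 and Pax6 had too few counts to test. The summed neural list ran from 487 to 829 CPM in strong clones and 627 to 663 CPM at the top doses. Of 10 fibroblast markers 2 passed the filter, both mainly through the top doses, so no count is given. Col1a1 was at 0.799 to 6.91 CPM (median 3.72) against 24.7, 25.4, 26.1 and 15.8 CPM (-2.52 ± 0.30, adjusted p = 8.2e-07), and the fibroblast sums were 5.51 to 29.6 CPM and 51.2 to 70.9 CPM. Of 10 trophoblast markers 3 were tested, of which Krt7 and Tfap2c were lower (-1.39 and -1.14) and Tead4 higher (1.04), with sums of 57.4 to 84.7 CPM and 84.9 to 115 CPM.

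Genes of the 2-cell-like state, which a small share of ES cells enters at any time, were near 0 at the top doses and variable among clones. Their sum ran from 3.88 to 376 CPM in strong clones and from 2.88 to 6.53 CPM at the top doses, with 16.9 to 51.3 CPM in weak clones and 6.52 and 10.6 CPM in untreated cells. Zscan4a, for example, was at 0.776 to 75.8 CPM (median 35.2) against 0, 0, 0 and 1.51 CPM. The S37F clone G1 and the T41I clone A6 were the 2 strong clones in the range of the inhibitor-treated cells, at 1.02 and 0.776 CPM. The 6 genes tested passed the filter only through strong clones, so their direction was fixed and no count is given as support. They belong to families of near-identical copies, and no fold is given because no top-dose library held more than 3 counts of any of them.

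Heat shock and metallothionein genes were higher in 6 of 11 cases and lower in none, with none passing relative to own baselines. Hspa8, among the 6, entered the test mainly through strong clones, and to that extent the count is no support. Hspa5 (BiP), a chaperone of the endoplasmic reticulum, was at 203 to 745 CPM (median 675) against 167, 158, 186 and 149.9 CPM (1.67 ± 0.33, adjusted p = 2.8e-04), and Hsph1 at 79.5 to 209.7 CPM (median 196) against 33.4, 38.0, 65.3 and 27.9 CPM (2.17 ± 0.25, adjusted p = 3.8e-07). Immediate early genes were lower in 5 of 9 and higher in 1, with Fos at -1.92 ± 0.31 (adjusted p = 3.0e-05) and Jun at -1.83 ± 0.27 (adjusted p = 1.1e-05). Fos entered the test mainly through the top doses. Of 7 mitochondrially encoded genes tested 3 were higher, mt-Cytb, mt-Nd1 and mt-Nd4 (1.00, 0.91 and 1.11), and mt-Nd6, which lies on the opposite strand of the mitochondrial genome, was lower (-1.43, adjusted p = 4.0e-05). None of the 7 passed relative to own baselines. Of 3 genes of the Y chromosome tested, Eif2s3y was lower (-1.18 ± 0.35, adjusted p = 0.0083), at 0.689 to 78.3 CPM (median 49.1) against 113, 87.6, 111 and 96.4 CPM. That call was lost with DESeq2 (adjusted p = 0.10), with 7.5 µM alone (0.056) and with 10 µM alone (0.092). The T41I clone B9 was lowest for all 3, with 0.689 CPM of Eif2s3y and of Ddx3y, whose range over strong clones was 0.689 to 125 CPM, and 2.07 CPM of Uty.

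Across all genes, the largest differences between groups that did not overlap were listed among genes with at least 20 CPM in the higher group. The 12 rises were Gm8300, Foxd3, Msc, Dusp27, Zfp936, Myc, Kbtbd11, Enox1, Arhgef26, Dnmt3l, Zfp57 and Mat2a. At least Gm8300, Foxd3, Msc, Kbtbd11 and Arhgef26 entered the test mainly through strong clones, so a rise was favoured by the filter. All 12 were also picked by size and by not overlapping, so neither trait is support. Foxd3, a forkhead factor needed to keep the epiblast, was at 24.0 to 78.5 CPM (median 62.4) in strong clones, 3.63, 2.305, 6.53 and 3.77 CPM at the top doses, 7.61 and 6.38 CPM in untreated cells and 14.1, 44.4 and 42.2 CPM in weak clones (3.92 ± 0.46, adjusted p = 6.0e-07). Mat2a, which makes the methyl donor S-adenosylmethionine, was at 173 to 457 CPM (median 327) against 53.7, 54.2, 39.2 and 65.5 CPM (2.55 ± 0.22, adjusted p = 1.3e-08), but at 286, 416 and 425 CPM in weak clones. Kbtbd11 was instead lower at the top doses than in untreated cells: it was at 18.6 to 46.0 CPM (median 26.9) against 4.35, 5.19, 0 and 0.753 CPM, with 17.9 and 19.14 CPM in untreated cells, and the difference relative to own baselines also passed (3.64 ± 0.64, adjusted p = 1.9e-04).

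The falls included Fgfbp3, Kif1a, Phox2a, Lmo2, Rnf43, Bhlhe41, Rgs17, Igsf11, Greb1, Zc3h6 and S100a13. Except for S100a13, their mean in strong clones was under the filter's level (7.43 CPM). Such genes entered the test mainly through the top doses, so a fall was favoured by the filter. All were also picked by size and by not overlapping, so neither trait is support. Fgfbp3, a secreted carrier of FGFs, had the largest difference, with 0.599 to 5.87 CPM (median 1.55) in strong clones, 45.7, 36.9, 68.6 and 68.5 CPM at the top doses and 3.805 and 5.32 CPM in untreated cells (-4.58 ± 0.31, adjusted p = 7.1e-10). Greb1, an oestrogen-responsive gene, was likewise at 1.49 to 8.19 CPM in strong clones, 45.7, 46.1, 55.5 and 51.2 CPM at the top doses and 10.9 and 5.32 CPM in untreated cells. Lmo2, a haematopoietic adaptor of transcription factors, was at 0 to 7.16, 10.9 to 35.9 and 1.63 and 1.06 CPM in the same order of groups. Kif1a, a neuronal kinesin, had another pattern: against untreated cells the top doses differed by 0.41 on the log2 scale (adjusted p = 0.47) and strong clones by -3.45 (adjusted p = 3.4e-08). Bhlhe41 and Zc3h6 had few counts in weak clones too. Bhlhe41 was at 2.82, 0 and 1.51 CPM there and at 0.689 to 10.1 CPM in strong clones, and Zc3h6 at 0, 4.04 and 0 and 1.38 to 5.87 CPM. In the T41S, T41N and S45C clones 3 counts correspond to 1.69, 6.05 and 4.53 CPM. All these weak-clone levels but the 2.82 CPM were thus under 3 counts. The differences of Bhlhe41 and Zc3h6 relative to own baselines, 0.03 ± 0.48 and 1.64 ± 0.93, rest on such counts.

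**Figure D4:**
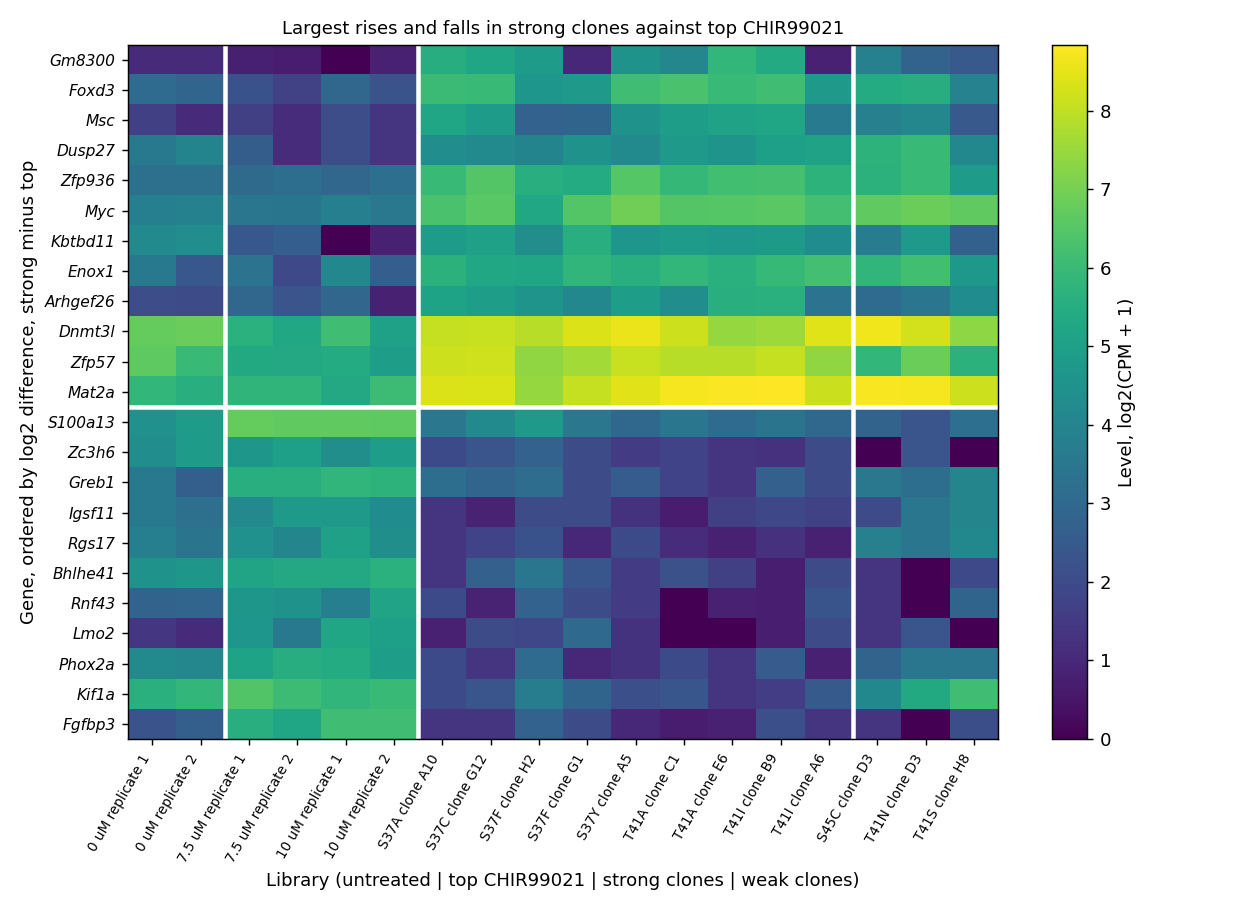
Level, as log2(CPM + 1), of the 12 largest rises (upper block) and 11 of the largest falls (lower block) in each of the 2 untreated, 4 top-dose, 9 strong and 3 weak libraries, with genes ordered by the log2 difference between strong clones and top CHIR99021. Weak clones resemble strong clones for Myc and Mat2a, and Fgfbp3, Lmo2, Greb1 and S100a13 are brightest in the 4 top-dose columns.

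A part of the response was alike in both groups. The 95% interval of the difference lay within -0.5 to 0.5 for 1892 of the genes tested (18.6%), and 79 of these had changed in the same direction against untreated cells in both groups. Pdgfa, a growth factor gene, was at 464 to 759 CPM (median 551) in strong clones and 625, 542, 457 and 598 CPM at the top doses, against 177 and 184 CPM in untreated cells (interval of the difference -0.28 to 0.17). Grsf1, an RNA-binding protein of mitochondria, and Hyal2, a hyaluronidase, rose alike, at 1.14 and 1.30 for the top doses and 1.11 and 1.34 for strong clones, and Baz1a and Twf2 fell alike, at -1.14 and -1.16 for the top doses and -1.09 and -1.24 for strong clones. For Hyal2, however, weak clones were at 94.9, 68.6 and 52.8 CPM, and the difference relative to own baselines was -1.64 ± 0.33 (adjusted p = 6.1e-04). The values against untreated cells share the 2 control libraries and are given side by side only.

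Strong clones mutated at codon 37 and at codon 41 were also compared with each other. Of 10145 genes, 17 differed between the 5 and the 4 clones (0.168%), 10 higher (0.0986%) and 7 lower (0.069%) at codon 37, and 1087 had an unadjusted p under 0.05. This test was not repeated with clones left out. Of the genes named here, 3 were among them. Axin2 was at 63.4 to 87.4 CPM in codon 37 clones and 38.9 to 52.4 CPM in codon 41 clones (0.67 ± 0.14, adjusted p = 0.042), T at 36.5 to 58.3 CPM and 15.6 to 27.5 CPM (1.203 ± 0.19, adjusted p = 0.0055) and Krt19 at 38.7 to 50.4 CPM and 15.6 to 31.004 CPM (0.93 ± 0.16, adjusted p = 0.013). In all 3 the clone groups did not overlap, codon 37 clones were higher, and both sets lay below every top-dose library. No other gene of the 163 compared by name passed. Sp5 was at 0.07 ± 0.24 (adjusted p = 0.95) and Nr0b1 at -0.22 ± 0.13 (adjusted p = 0.57), which does not show that they were equal. Differences that did not pass were 1.69 ± 0.52 for the primitive endoderm gene Gata6 (adjusted p = 0.23), 1.57 ± 0.58 for Sox17 (adjusted p = 0.31) and 1.30 ± 0.47 for Dab2 (adjusted p = 0.3).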

How the data were processed

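RNA of E14 ES cells was sequenced by the authors with an adapted mcSCRB-seq protocol, which reads 3′ ends with unique molecular identifiers (UMIs). Per the study's methods, reads were trimmed, filtered against ribosomal RNA, aligned to mm10 with RNA STAR, deduplicated by UMI with UMI-tools, passed through Picard MarkDuplicates to filter duplicates, and assigned to genes with featureCounts 2.0.1. The deposited values are raw counts per gene for 48440 genes in 25 libraries, and 24146 genes had no count in any. The annotation release and strand setting are not given in the sources used here. Gene IDs were matched to GENCODE M21 (48058 of 48440). Removal of duplicates can compress the highest counts, to an extent that was not tested.

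Counts were tested with edgeR 4.0.16 in R 4.3.3 (TMM factors, low counts removed by filterByExpr at 10 counts, its quasi-likelihood test, p adjusted after Benjamini-Hochberg over all genes tested, threshold 0.05). CPM are counts scaled to a library total of 1000000, without TMM. Log2 differences are strong clones minus top CHIR99021 with their SE, from fits with 13 libraries, with 15 including untreated cells and with 18 including weak clones. Adjusted p-values without a named test are edgeR's. Alternatives included DESeq2 1.42.0, limma 3.58.1, RLE scaling, thinned counts and leaving out libraries. The statistics were tested on simulated data. Library totals were 306157 to 2025273 counts for the 13 libraries compared. Replicate libraries differed by more than sampling noise. Nothing says that libraries of 1 dose came from separate cultures, so p-values there measure the spread between samples, which may be technical. Floors of 3 counts cover counting error only.

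The members, the 37 gene lists and the tests were chosen with earlier results of these data known. Named were the 10 study targets and Ctnnb1, up to 4 genes with the largest passing difference per list and its defining markers, the 12 largest non-overlapping rises and falls with a mean of at least 20 CPM in the higher group, and up to 8 genes changed alike. Further list members named in the text were chosen after their values were seen, as was the test between codons. Promoters were searched in Python 3.11.15 with pandas 2.3.3. A few genes of the lists and of the largest falls are not reported here.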

Additional observations from a re-analysis of the deposited data

Results flagged for a closer look

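Single libraries stood apart from the rest of their group for 33 of 334 tests with Dixon's criterion, made on 163 named genes and 4 library properties in the 9 strong clones and in the 4 top-dose libraries. The criterion sets apart about 1 in 20 by chance only where values are normally distributed, which was not tested for these CPM. The count of 33 is therefore not read as an excess over chance. Values are CPM, with the nearest other library of the group, and no cause was tested.

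The S37F clone H2 had the highest level of 8 genes among strong clones. They were Ddit4 at 172 (next 104), Egln3 at 38.4 (next 18.6), Slc16a3 at 177 (next 109), Npc2 at 312 (next 238), Ier3, an early stress gene, at 27.2 (next 17.1), Gpx2 at 50.2 (next 31.3), Kif1a at 12.3 (next 6.14) and Fgf8 at 6.94 (next 2.05). The S37Y clone was highest for the primitive endoderm genes Gata6 at 85.4 (next 26.1), Sox17 at 60.2 (next 30.5) and Dab2 at 39.0 (next 18.0), for the imprinted gene Peg10 at 355 (next 206) and for Tet3 at 8.89 (next 4.47). The T41I clone B9, which also held the least of the Y-linked genes, was highest for the smooth muscle genes Tagln at 86.1 (next 59.5) and Cnn1 at 8.96 (next 5.34), for Plk2, a p53-induced kinase, at 71.7 (next 40.98) and for Polr1b at 98.5 (next 76.1). The T41I clone A6 was highest for Rragd at 54.3 (next 29.6) and lowest for Tead4 at 19.4 (next 32.8). The S37F clone G1 was highest for Kbtbd11 at 46.0 (next 32.0), Lmo2 at 7.16 (next 3.20) and Mixl1 at 5.11 (next 2.40), and the S37A clone for Pdgfa at 759 (next 593).

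Among the top-dose libraries, replicate 1 at 10 µM, the shallowest, was lowest for Vldlr, a lipoprotein receptor, at 0 (next 27.1), Vegfa at 29.4 (next 64.6) and Skil at 203 (next 277) and highest for Wnt9a at 22.9 (next 11.3). Replicate 2 at 10 µM was lowest for Col1a1 at 15.8 (next 24.7) and highest for Smad6 at 29.4 (next 20.7) and Zscan4a at 1.51 (all others 0). At 7.5 µM, replicate 2 was lowest for Gbx2 at 64.5 (next 86.3) and highest for Usp17lc at 0.576 (all others 0), and replicate 1 was lowest for Nr0b1 at 73.3 (next 81.3).

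The contrast with the top doses also differed between clones mutated at codon 37 and codon 41 for 3 of the 163 named genes. By edgeR's quasi-likelihood test of that difference, codon 37 clones were higher by 0.67 on the log2 scale for Axin2, by 0.93 for Krt19 and by 1.203 for T.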

How the results depend on the processing

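Between strong clones and top CHIR99021, the counts were 2458 higher and 2585 lower, and 1048 and 1148 with counts thinned to the smallest library, which leaves fewer genes tested, and 1298 and 1612 with the 10 µM libraries alone. Under RLE scaling, DESeq2, limma-voom, no filter, counts summed per mutation, clones of 1 codon, 7.5 µM alone or a tested fold of at least 1.2, they stayed within 1.5 times, and leaving out 1 library gave 2024 to 2519 and 2180 to 2679. Replicate numbers did not pair the samples: over 10 pairs of groups, deviations of same-numbered libraries correlated at -0.17 to 0.12, with 1 pair over 0.1. With the replicate block the counts were 2371 and 2499, and the calls of Gata6 and Gbx2 were lost. Leaving out 1 library gave 806 to 2003 higher and 916 to 2303 lower for strong clones against untreated cells, 55 to 409 and 72 to 461 for the top doses against untreated cells, and 547 to 1128 and 728 to 1400 relative to own baselines, which became 132 and 139 with medium clones as the baseline. With that baseline, 5 of 18 naive genes were higher and 1 lower, 3 of 12 feedback inhibitors and 1 of 14 BMP genes were lower, and no glycolytic gene passed. The difference in mitochondrial share, 0.869 percentage points, ran from 0.651 to 0.975 when 1 library was left out, chosen after seeing the data.

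Over the named genes and all alternatives, 4019 values were counted as unchanged, 116 lost their call, 47 of them relative to own baselines and 21 with 10 µM alone, and 12 gained one. The 4019 kept direction and side of the threshold, or changed sign in a gene that did not pass in the main fit. Sign changes of such genes, including to a value that passed, were not counted apart. Another 21 values, of genes that passed in the main fit, changed sign, all relative to own baselines, and the cause was not tested: Acvr1b 0.065, Bhlhe41 0.034, Bop1 -0.074, Csnk1e 1.01, Ddit3 0.44, Egln3 1.55, Eomes -0.017, Gbx2 -0.99, Hexa 0.62, Jup -0.44, Mat2a -0.23, Neu1 0.31, Nqo1 -0.093, Pdgfrb 0.51, Tubb3 -0.095, Vegfa 0.64, Zc3h6 1.64, mt-Cytb -0.62, mt-Nd1 -0.10, mt-Nd4 -0.67 and mt-Nd6 1.01. Of these, Csnk1e and Egln3 passed the test there. When 1 library was left out, the calls of Nqo1, Pdgfrb and Tubb3 were lost in at least 1 case each, always a top-dose library. Depth limits genes under about 10 CPM in replicate 1 at 10 µM. It also limits low genes in the weak clones T41N and S45C, with 495616 and 662881 counts, where 3 counts correspond to 6.05 and 4.53 CPM.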

Other observations

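Several of the largest rises belong to none of the lists. Msc, a basic helix-loop-helix repressor, was at 5.87 to 36.5 CPM (median 28.0) in strong clones, 2.176, 1.15, 3.27 and 1.51 CPM at the top doses and 4.52, 16.1 and 13.6 CPM in weak clones (3.67 ± 0.63, adjusted p = 6.4e-05 by edgeR's quasi-likelihood test). Arhgef26, a guanine nucleotide exchange factor, was at 9.31 to 47.5 CPM (median 29.6) against 6.53, 4.03, 6.53 and 0.753 CPM (2.76 ± 0.47, adjusted p = 5.0e-05), and Enox1 at 36.3 to 72.1 CPM (median 49.9) against 9.43, 2.88, 16.3 and 5.27 CPM (2.93 ± 0.30, adjusted p = 9.2e-08). Msc and Arhgef26 were under the filter's level (7.43 CPM) in all top-dose libraries and Enox1 in part of them, so a rise was favoured by the filter. Relative to own baselines none of the 3 passed, at 1.36, 0.71 and 0.53.

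Among the largest falls outside the lists, Phox2a, a homeobox gene of autonomic neurons, was at 0.776 to 7.47 CPM (median 1.60) against 34.1, 44.4, 42.5 and 30.1 CPM (-3.67 ± 0.31, adjusted p = 1.0e-08; -2.77 ± 0.59 relative to own baselines, adjusted p = 0.0012). Rgs17, a regulator of G protein signalling, was at 0.743 to 3.74 CPM (median 1.38) against 21.0, 15.6, 32.7 and 20.3 CPM and Igsf11, an adhesion protein, at 0.599 to 3.20 CPM (median 2.23) against 16.7, 25.9, 26.1 and 18.8 CPM, with differences of -3.43 ± 0.32 (adjusted p = 2.8e-08) and -3.42 ± 0.30 (adjusted p = 1.3e-08). For Phox2a, Rgs17 and Igsf11 the median of strong clones was under the filter's level, so a fall was favoured by the filter. S100a13 was at 6.91 to 26.2 CPM (median 10.2) in strong clones, 106, 101, 101 and 99.4 CPM at the top doses and 21.2 and 27.6 CPM in untreated cells.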
